A study of Mus musculus with 2 samples.

Results

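Coding parts of messenger RNAs are described here as sources of PIWI-interacting RNAs (piRNAs). A gene was taken as a member when the coding part of its longest coding transcript held at least 100 reads of 24 to 30 nt, the piRNA size range, with the reads of both libraries summed, each sequence matching 1 gene alone and its 5′ end lying inside the coding part. By this rule 5472 of 21866 protein-coding genes of the GENCODE M21 annotation were members (25%), and 14599 genes held at least 1 such read. The summed reads of 24 to 30 nt therefore chose the members, and the levels at that length are given as a description. Of the members, 311 lay inside the limit by fewer than 10 reads, and 324 genes missed it by 10 reads or fewer.

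Each genotype, Tdrkh-/- (the knockout) and Tdrkh+/- (the heterozygote), gave 1 small RNA library, made from 5 pooled pairs of mouse testes taken 11 days after birth. In the deleted allele exons 2 to 4 of Tdrkh, which include the start codon, had been floxed and then excised with the EIIa-Cre transgene, which later crosses removed, on a mixed C57Bl6/129 background. The heterozygous controls carry 1 deleted allele too, so no library from animals with 2 intact alleles enters the comparison. The design text describes 2 knockout lines from separate founders, and the labels do not say which line gave the library. With 1 library per genotype no test was possible. Every interval below is a 95% interval that covers the counting error of reads at most. Without molecular identifiers several reads can stem from 1 molecule, so the intervals may be too narrow even for counting error.

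A piRNA guides a PIWI protein, and in germ cells of the testis these complexes silence transposons and act on other transcripts. Primary piRNAs are cut from long single-stranded RNAs, messenger RNAs included: an endonuclease makes a cut before a U, which becomes the 5′ end, a later cut frees a longer intermediate that is loaded on a PIWI protein, and an exonuclease trims its 3′ end to the final length. Tdrkh, a protein of the mitochondrial surface with Tudor and KH domains, binds PIWI proteins and takes part in that trimming. Before the pachytene stage of meiosis the mouse testis makes prepachytene piRNAs, many of them from messenger RNAs.

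Examples of the coding reads are shown first, because their 5′ base, their length and the base after their 3′ end carry the results that follow. They are the most frequent sequences of 24 to 30 nt in 8 members chosen for their many reads in total or per kb, taken from the deposited count lists, with the 5′ base in capitals and U written as T.
Fth1: Tgaccgagatgatgtggctctgaagaactt
Stard9: Tagagagacccaagaaggacaatgagcttc
Tbc1d20: Tactttcaaagactttgagctggcatc
Ppp1r15b: Tgcccgagcgtcggaccaggtactggacc
Smcr8: Taaagtggtactgggagactctaagga
Uqcrq: Tgaaaatgacaagtagacggcctgcacc
Cmtm4: Tgactacatccgagctcgcaccgagtc
Hist1h2ba: Tgacagacatcttcgagcgcatcgcgagc

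All 8 start with U. In the GRCm38 build the Fth1 sequence lies in exon 3 of 5 on chr19:9984192-9984221 (+), the Stard9 sequence in exon 22 of 32 on chr2:120699742-120699771 (+), and the Tbc1d20 sequence in exon 8 of 8 on chr2:152311722-152311748 (+). The Ppp1r15b sequence lies in exon 1 of 2 on chr1:133131892-133131920 (+) and the Smcr8 sequence in exon 1 of 2 on chr11:60778390-60778416 (+). The Cmtm4 sequence lies in exon 4 of 4 on chr8:104355173-104355199 (-) and the Hist1h2ba sequence in the single exon on chr13:23933926-23933954 (-). The Uqcrq sequence, in exon 2 of 2 on chr11:53429044-53429071 (-), starts at base 234 of a coding part of 249 nt and so runs across the stop codon.

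From the same 5′ ends the knockout library held longer reads in some members. At the Smcr8 end shown, the most frequent read had 35 nt with 982 reads in the knockout, against 27 nt with 1003 reads in the heterozygote. At the Ppp1r15b end the most frequent read had 32 nt with 669 reads in the knockout, against 29 nt with 3363 reads in the heterozygote. At the Cmtm4 end the most frequent read had 31 nt with 126 reads in the knockout, against 27 nt with 2376 reads in the heterozygote. The base after that longer read is a G. The longer reads of Smcr8 and Ppp1r15b are printed below in lower case. The base that follows the 3′ end in the messenger RNA is added in capitals, and in both it is a U.
Smcr8 in the knockout: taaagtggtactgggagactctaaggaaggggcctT
Ppp1r15b in the knockout: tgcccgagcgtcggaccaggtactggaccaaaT
The shift was not seen at every end: at the Fth1 end the most frequent length was 30 nt in both libraries, with 21992 reads in the knockout and 5470 in the heterozygote, and the base after it is also a U. At the Tbc1d20 end it was 27 nt in both, with 704 and 24993 reads, and the base after it is an A.

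The libraries held 60973266 reads in the knockout and 43172204 in the heterozygote, of which 2482747 and 2359299 were microRNA reads, the reference for levels below. As a check of the labels, coding reads of 24 to 37 nt in the excised exons 2 to 4 of Tdrkh numbered 0 in the knockout (at most 3 by counting error) and 10 in the heterozygote. Tdrkh itself was a member through its other exons, with 45 and 74 reads of 24 to 30 nt. Reads across exon junctions were scarce in both deposited lists: 4.81% to 6.50% of coding reads crossed one, where placing reads at every U would give 13.8% to 17.3%, and 66.9% to 82.3% of those that did had the junction within 5 nt of an end, where even placing would give 30.6% to 37.5%. Bowtie and mm9 are named in the submitters' processing notes; whether a genome match was required before deposit is not given in the sources used here, and its part in these shares was not tested. Positions near junctions are therefore left out where the density is given by base.

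Coding reads of piRNA size were scarcer in the knockout, and longer coding reads were more frequent. Members held 730967 coding reads of 24 to 30 nt in the knockout and 2013916 in the heterozygote, a ratio of 0.345 (0.344 to 0.346) per microRNA read. At 31 to 37 nt they held 1726752 and 493167, a ratio of 3.33 (3.32 to 3.34). With each distinct sequence counted once in place of its reads, the log2 ratio at 31 to 37 nt was 0.13 in place of 1.73, so the higher level of long reads came with more reads per sequence. In bulk testis, fewer cells that make piRNAs and fewer piRNAs per cell cannot be told apart.

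The ratio between the libraries depended on read length. Coding reads had a mean length of 32.2 ± 3.31 nt (SD over reads) in the knockout and 28.7 ± 2.67 nt in the heterozygote. The most frequent length was 27 nt in the heterozygote. In the knockout it was 36 nt, and 33 nt without Fth1, which alone held 10.1% of the long knockout reads. Per microRNA read the ratio was 1.05 at 24 nt, lowest at 27 nt with 0.164, 0.915 at 30 nt, and highest at 36 nt with 7.17. At the 6414 coding 5′ ends with at least 20 reads of 24 to 37 nt in each library, reads from the same end were longer on average in the knockout at 89.9%, with a median difference of 2.15 nt (middle range 0.704 to 3.86).

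**Figure D1:**
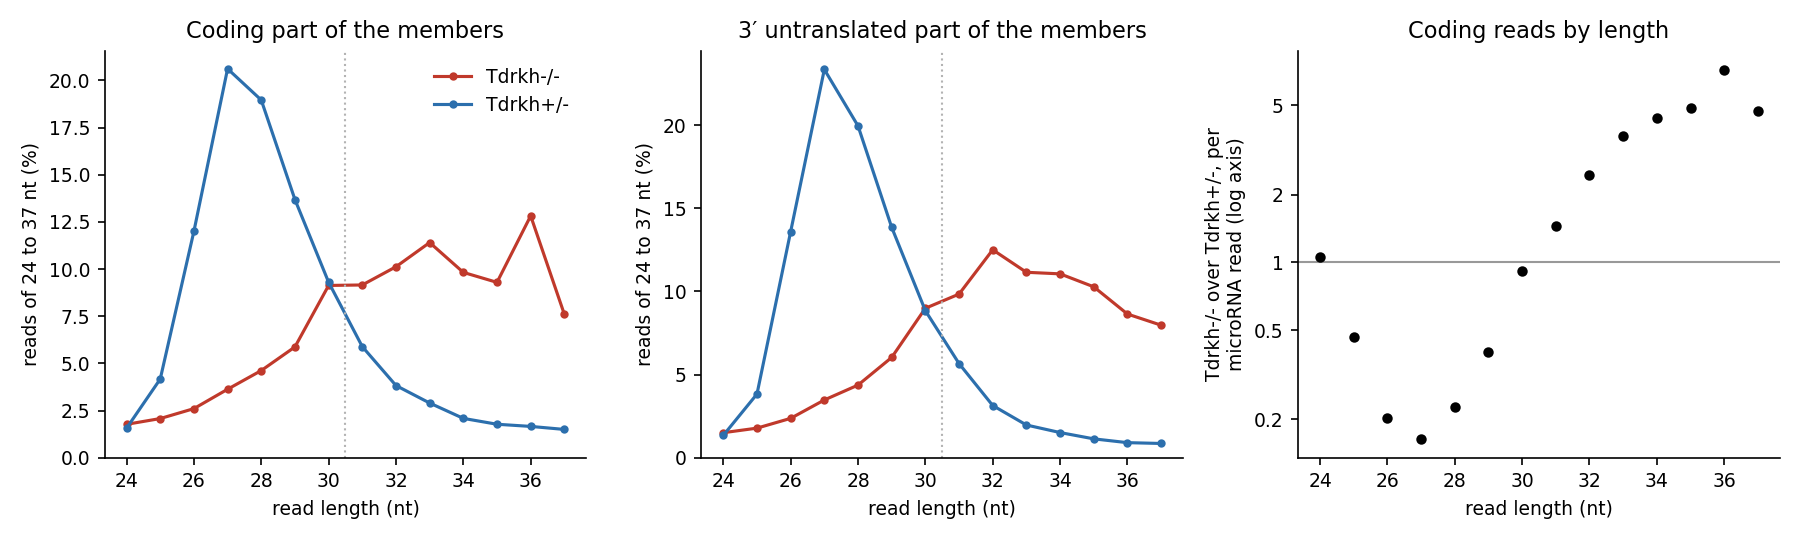
Share of reads of 24 to 37 nt (y axis, %) by read length (x axis, nt) in the coding parts (left) and the 3′ untranslated parts (middle) of the members, and the ratio of coding reads per microRNA read at each length on a log axis (right, 95% intervals smaller than the points). The Tdrkh+/- reads peak at 27 nt, where the ratio is lowest at 0.164, and the Tdrkh-/- coding reads spread over 30 to 37 nt, with the point at 36 nt raised by Fth1.

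The 3′ untranslated parts of the same genes showed a like ratio at piRNA size and a higher one above it. Their reads of 24 to 30 nt had a ratio of 0.343 (0.343 to 0.344) against 0.345 in the coding parts, and those of 31 to 37 nt had a ratio of 4.79 (4.78 to 4.80) against 3.33. The 5′ untranslated parts had ratios of 0.205 (0.203 to 0.207) and 2.54 (2.50 to 2.57). Per kb, coding parts held 57.1 reads of 24 to 30 nt in the knockout and 157 in the heterozygote, and 3′ untranslated parts held 194 and 538. By gene the order was mixed: among the 5089 members with a 3′ untranslated part of at least 100 nt, 63.7% were denser in the coding part, the part by which they were chosen. In the 2392 members with enough reads in both parts, the log2 ratios of the coding and the 3′ untranslated part were only weakly related, with a Pearson r across genes of 0.23 for the short and 0.36 for the long reads, a description of genes that share the same libraries.

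Most members took part in the exchange of short for long reads. At 24 to 30 nt 3886 members (71%) were lower by 2-fold or more in the knockout, where 73.1% of the 7788 whole transcripts with at least 100 such reads were, and 31 members (0.567%) were higher by 2-fold or more, against 0.758%. At 31 to 37 nt 3653 members (66.8%) were higher by 2-fold or more, against 71.9%, and 89 (1.63%) lower by 2-fold or more, against 1.12%. Both shifts in direction together, lower at the short and higher at the long length by any amount, were seen in 4859 members (88.8%), against 90.7%. The members' median log2 ratios were -1.52 and 1.39, beside -1.52 and 1.49 over whole transcripts. These shares lie near those of whole transcripts, which hold the coding reads as well. With each distinct sequence counted once, 5319 members were lower by 2-fold or more at 24 to 30 nt and 637 higher by 2-fold or more at 31 to 37 nt.

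The ratio of long to short reads was higher in the knockout in almost every member, as in whole transcripts. In the 5125 members with at least 20 reads of 24 to 30 nt in each library, its median was 1.96 in the knockout (middle range 1.33 to 2.93) and 0.267 in the heterozygote (0.159 to 0.413). It was higher in the knockout in 5078 of them (99.1%), against 99.3% of 7448 whole transcripts chosen in the same way.

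Coding reads began with U far more often than the coding sequence offers it. The coding reads of 24 to 30 nt carried a 5′ U in 68.6% of cases in the knockout and 75.5% in the heterozygote, where 21.8% of coding bases are U. Reads of the 3′ untranslated parts had 85.9% and 86.7%, on sequence with 29.6% U. At 31 to 37 nt the coding shares were 73.9% in the knockout and 61% in the heterozygote. Long knockout reads thus carried the 5′ U nearly as often as piRNA-size reads of the heterozygote, whereas in the heterozygote the share declined with length to 44.5% at 37 nt. The shares of long knockout and short heterozygote reads were 71.5% and 75.3% without Fth1. With each member weighted alike they were 60.9% and 66.9%. An A at position 10, the mark of piRNAs made by the ping-pong cycle, stood in 30.4% and 32.1% of the short reads and in 37% and 31.8% of the long ones, where 26.6% of coding bases are A. The value of 37% in long knockout reads was 32.5% without Fth1.

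Members differed in their share of 5′ U, and the members rich in it had lower short and higher long log2 ratios. Among the 5437 members with at least 50 heterozygote reads of 24 to 30 nt, the share of 5′ U in those reads had a median of 69.4%, with 5% of members below 33.8% and 5% above 91.3%. The 377 members with 90% or more had median log2 ratios of -2.17 for the short reads and 2.01 for the long ones. The 186 members below 30%, near the base content, had medians of -1.03 and 0.99. Across members the share had a Pearson r of -0.30 with the short log2 ratio and 0.17 with the long one, a description over genes that share both libraries. The share and the short log2 ratio both use the heterozygote reads of 24 to 30 nt, so they are not independent. The most used 5′ end held a median of 42.7% of reads in members with 90% or more and 22.3% in those below 30%. The part of single ends in this relation was not tested.

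Messenger RNAs of smooth muscle were among the members poorest in 5′ U. Myh11, the smooth muscle myosin heavy chain of peritubular cells, had 7.83% 5′ U in its 230 heterozygote reads of 24 to 30 nt, and Acta2, smooth muscle actin, had 17% of 106. Hsp90ab1, a cytosolic chaperone, had 32.7% of 1147 reads, beside 1141 in the knockout (log2 ratio -0.08, -0.20 to 0.04; -1.22 with each distinct sequence counted once). Piwil2, which encodes a PIWI protein, had 45.2% of 1090 reads beside 1594 in the knockout (0.47, 0.36 to 0.59), a difference that was 0.05 per read listed and -0.46 with each distinct sequence counted once.

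**Figure D2:**
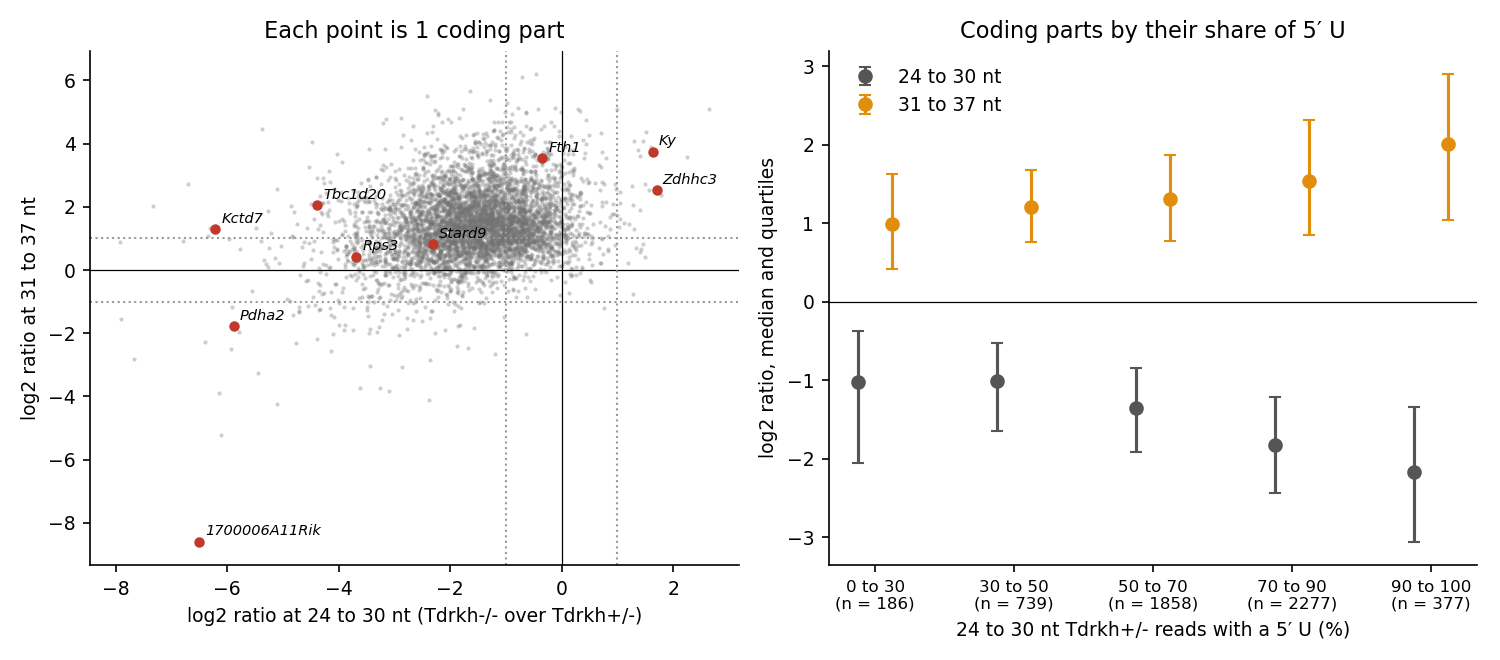
Left, log2 ratios of Tdrkh-/- to Tdrkh+/- per microRNA read at 24 to 30 nt (x axis) and 31 to 37 nt (y axis) for each coding part, without 3 members that had at most 3 long reads in each library, with dotted lines at 2-fold and a few named members in red. Right, median and quartiles of both log2 ratios (y axis) over members grouped by the share of 5′ U in their Tdrkh+/- reads of 24 to 30 nt (x axis, %); the medians move from -1.03 and 0.99 below 30% to -2.17 and 2.01 at 90% or more.

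In the knockout library the base after the 3′ end of a coding read was most often a U. It was U after 52.4% of the 24 to 30 nt reads and 58.0% of the 31 to 37 nt reads of the knockout, against 24.7% and 33.7% in the heterozygote. From 1 to 10 bases further on, U stood at 18.1% to 27.7% of positions in the knockout and 19.7% to 22.7% in the heterozygote, below the share at the adjoining base in each set. The long knockout share was 53.9% without Fth1 and 42.1% with each distinct sequence counted once. In phased production, as background, 1 cut makes the 3′ end of one intermediate and the 5′ U of the next.

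The 5′ ends of long knockout reads often coincided with piRNA 5′ ends of the heterozygote. Of the 81155 U bases at which long knockout reads began, 43.1% were also a 5′ end of a 24 to 30 nt read in the heterozygote, and these ends held 74.6% of the reads. At U bases 1 to 10 nt to either side the median share was 23.7% (13.5% to 40.5%), and over all U bases of the coding parts it was 5.94%.

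Along the coding part, 5′ ends became denser from the start codon to the stop codon in both libraries. The coding part was divided in 10 equal segments, and a U base was called used when at least 1 read began at it. Of the U bases with no exon junction in the 37 nt that follow, the share used at 24 to 30 nt was 5.80% in the first segment and 7.99% in the last in the heterozygote, and 1.49% and 2.42% in the knockout. At 31 to 37 nt it was 2.55% and 4.23% in the knockout and 2.33% and 3.16% in the heterozygote. By reads at all positions, the last segment held 1.35 times (1.35 to 1.36) as many 24 to 30 nt reads as the first in the heterozygote and 1.57 times (1.55 to 1.59) in the knockout. For 31 to 37 nt these ratios were 1.28 (1.26 to 1.30) in the heterozygote and 1.62 (1.61 to 1.63) in the knockout.

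Just before the stop codon the density was highest. In the last 30 nt before it 11.4% of U bases were used at 24 to 30 nt in the heterozygote, against 8.80% to 9.38% in the 9 windows of 30 nt before that. The 30 nt from the stop codon on had 7.91%, and 270 to 299 nt after it the share was 5.48%. The same peak was seen at 31 to 37 nt in the knockout, with 6.18% in the last 30 nt against 4.50% to 5.27% before. Ahead of the start codon the share climbed from 3.20% in the window that begins 300 nt before it to 5.75% at 31 to 60 nt and 7.18% in the 30 nt before it, the largest change between neighbouring windows (24 to 30 nt, the heterozygote). It was 7.14% in the 30 nt from the start codon on and 8.80% at 270 to 299 nt. Members were chosen for their coding reads, so lower values outside the coding part are in part set by that choice.

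**Figure D3:**
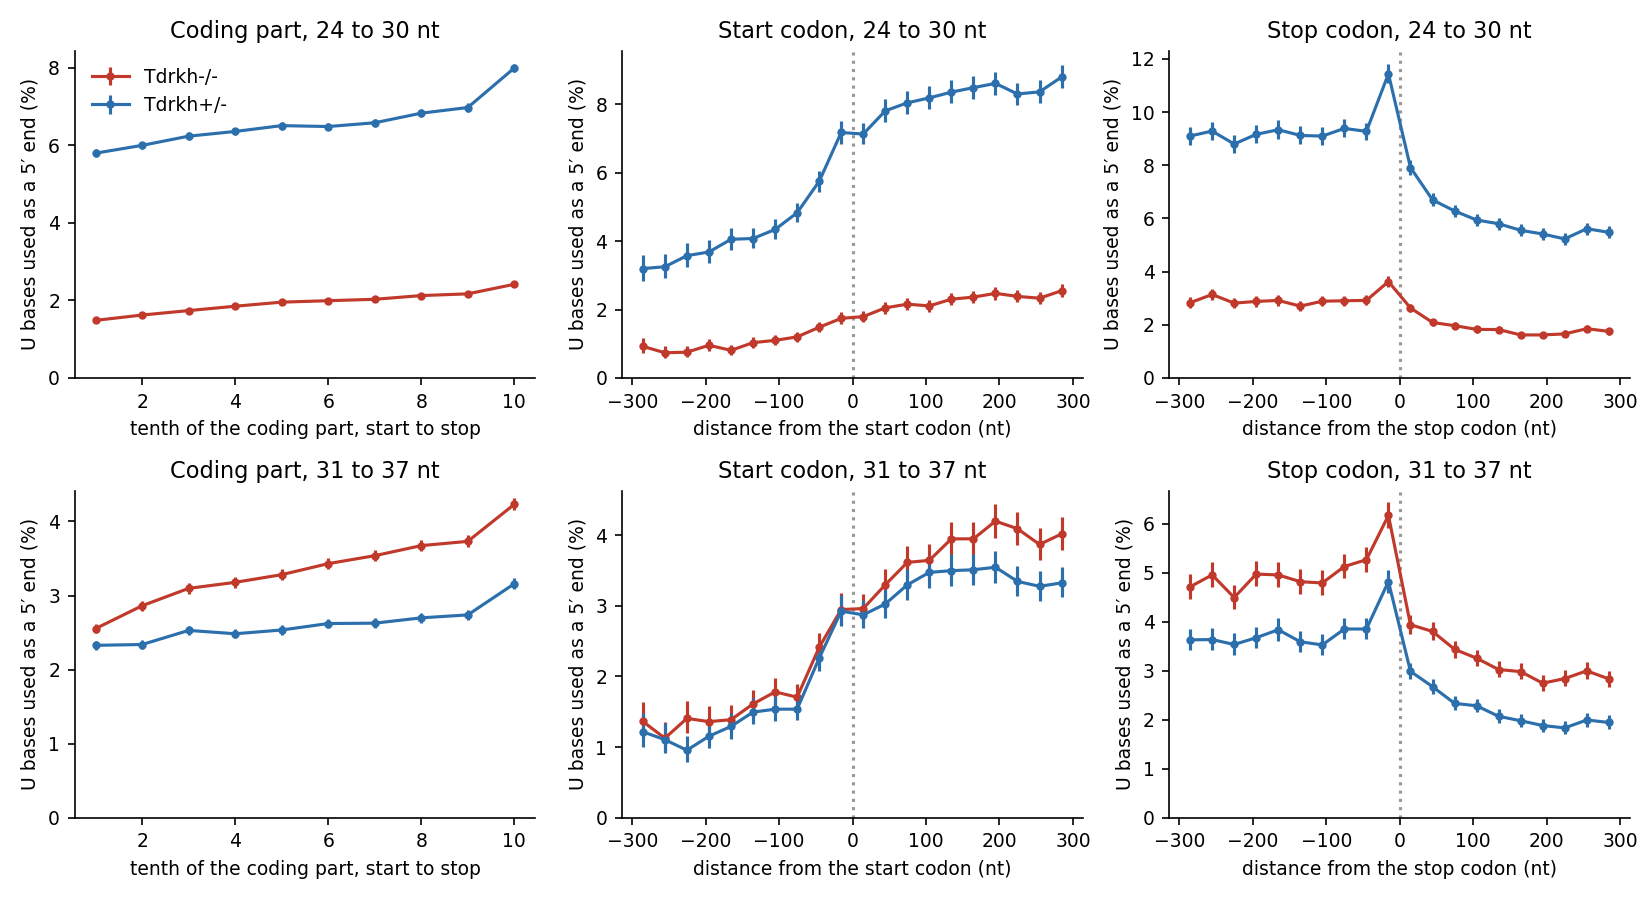
Share of U bases used as a 5′ end (y axis, %, with 95% Wilson intervals) at 24 to 30 nt (top) and 31 to 37 nt (bottom), in 10 equal segments of the coding part (left) and in windows of 30 nt around the start codon (middle) and stop codon (right; x axis, nt), for bases with no exon junction in the next 37 nt. In Tdrkh+/- the 24 to 30 nt share rises from 5.80% to 7.99% along the coding part and is highest, 11.4%, in the 30 nt before the stop codon.

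Long exons were used more than short ones, with a small margin inside genes. In exons over 1000 nt 8.37% of U bases were used at 24 to 30 nt in the heterozygote, against 5.54% to 6.18% in shorter exons, and for 31 to 37 nt in the knockout the values were 4.48% against 2.77% to 3.10%. Within members that have both kinds, exons over 300 nt were used more than shorter ones in 54.4% of 2194 members and 52.5% of 1365 members, respectively. The scarcity of reads across junctions touches short exons most, and its part in this difference was not tested beyond leaving out positions near junctions.

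The reading frame was weakly marked, and how weakly depended on the expectation. Of the 5′ U reads of 24 to 30 nt, 44.5% in the knockout and 41.5% in the heterozygote began at codon position 3, which holds 35.9% of the U bases of complete coding parts. The long reads had 45.7% and 43.3%. Observed over expected, these are ratios of 1.24 (1.24 to 1.24), 1.16 (1.16 to 1.16), 1.28 (1.27 to 1.28) and 1.21 (1.20 to 1.21). Reads without a 5′ U were spread over the codon positions at 31.7% to 35.1% each. The long knockout ratio was 1.09 without Fth1, whose most used end is at codon position 3.

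When the expectation took in the bases from 1 before to 2 after the U, an alternative added after the data were seen, the ratios were 1.03, 1.0, 1.09 and 1.04 in the same order. With each end counted once in that comparison they were 1.0, 0.989, 0.988 and 1.02. An expectation from 2 bases before to 3 after the U, likewise added, gave 1.06, 1.03, 1.15 and 1.06 by reads, and 1.03, 1.01, 1.01 and 1.04 with each end once. One such neighbouring base is the base after the 5′ U: it was A in 32.4% to 36% of 5′ U reads, where 14.6% of coding U bases are followed by A.

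**Figure D4:**
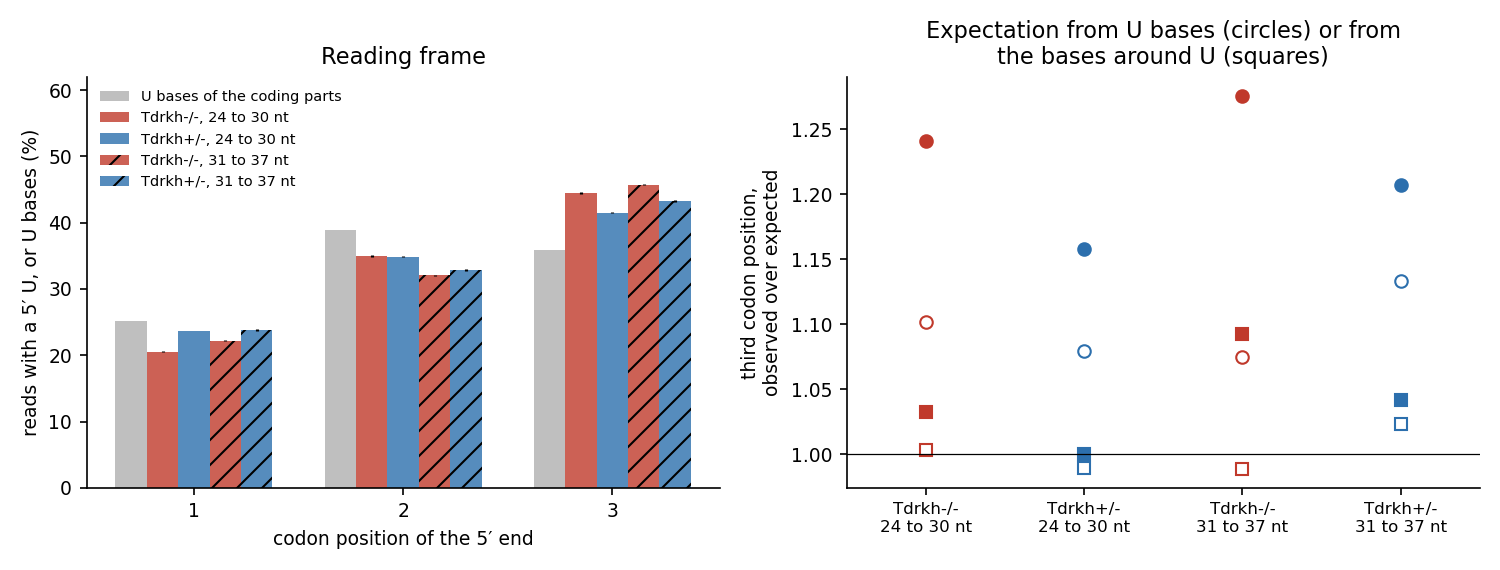
Left, share of 5′ U reads at each codon position (y axis, %, 95% Wilson intervals) beside the share of coding U bases there (grey). Right, observed over expected share at codon position 3 with the expectation from U bases alone (circles) or from the bases 1 before to 2 after the U (squares), by reads (filled) or with each 5′ end once (open). The reads lie between 1.16 and 1.28 on the first expectation and between 1.0 and 1.09 on the other.

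Spacing of 5′ ends along the coding part was faint, with a maximum between 29 and 35 nt. The share of U bases used was measured at each distance downstream of a 5′ end, whatever the base of that end, with each 5′ end counted once. After a steep decline over the nearest bases, the curve smoothed over 3 nt rose again to a maximum at 29 nt for 24 to 30 nt reads of the knockout, at 33 nt for those of the heterozygote, and at 35 nt for the 31 to 37 nt reads of both libraries. Distances of 30 to 37 nt had 1.11 times (1.08 to 1.14) the use of distances of 22 to 25 and 43 to 48 nt for 24 to 30 nt reads in the knockout and 1.05 times (1.05 to 1.06) in the heterozygote. For 31 to 37 nt reads the values were 1.10 (1.09 to 1.12) in the knockout and 1.06 (1.04 to 1.08) in the heterozygote. The maximum at 33 nt in the short heterozygote reads lies beyond their own lengths, of which 27 nt was the most frequent. These windows were set after the curves had been seen.

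U bases within 3 nt after the 3′ end of a read were used as 5′ ends more often than those further on. U bases 1 to 3 nt after the 3′ end were used 1.21 times (1.17 to 1.26) as often as those 4 to 20 nt after it by 24 to 30 nt reads of the knockout, and 1.03 times (1.02 to 1.05) in the heterozygote. At 31 to 37 nt the values were 1.21 (1.18 to 1.23) and 1.19 (1.16 to 1.22). The adjoining base was not the maximum. Use at 1 and 2 nt was 1.22 and 1.27 for the short reads of the knockout and 1.01 and 1.07 in the heterozygote. For the long reads it was 1.20 and 1.26 in the knockout and 1.19 and 1.20 in the heterozygote. The short reads of the heterozygote were therefore the set in which 3′ ends were least tied to a following 5′ end.

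**Figure D5:**
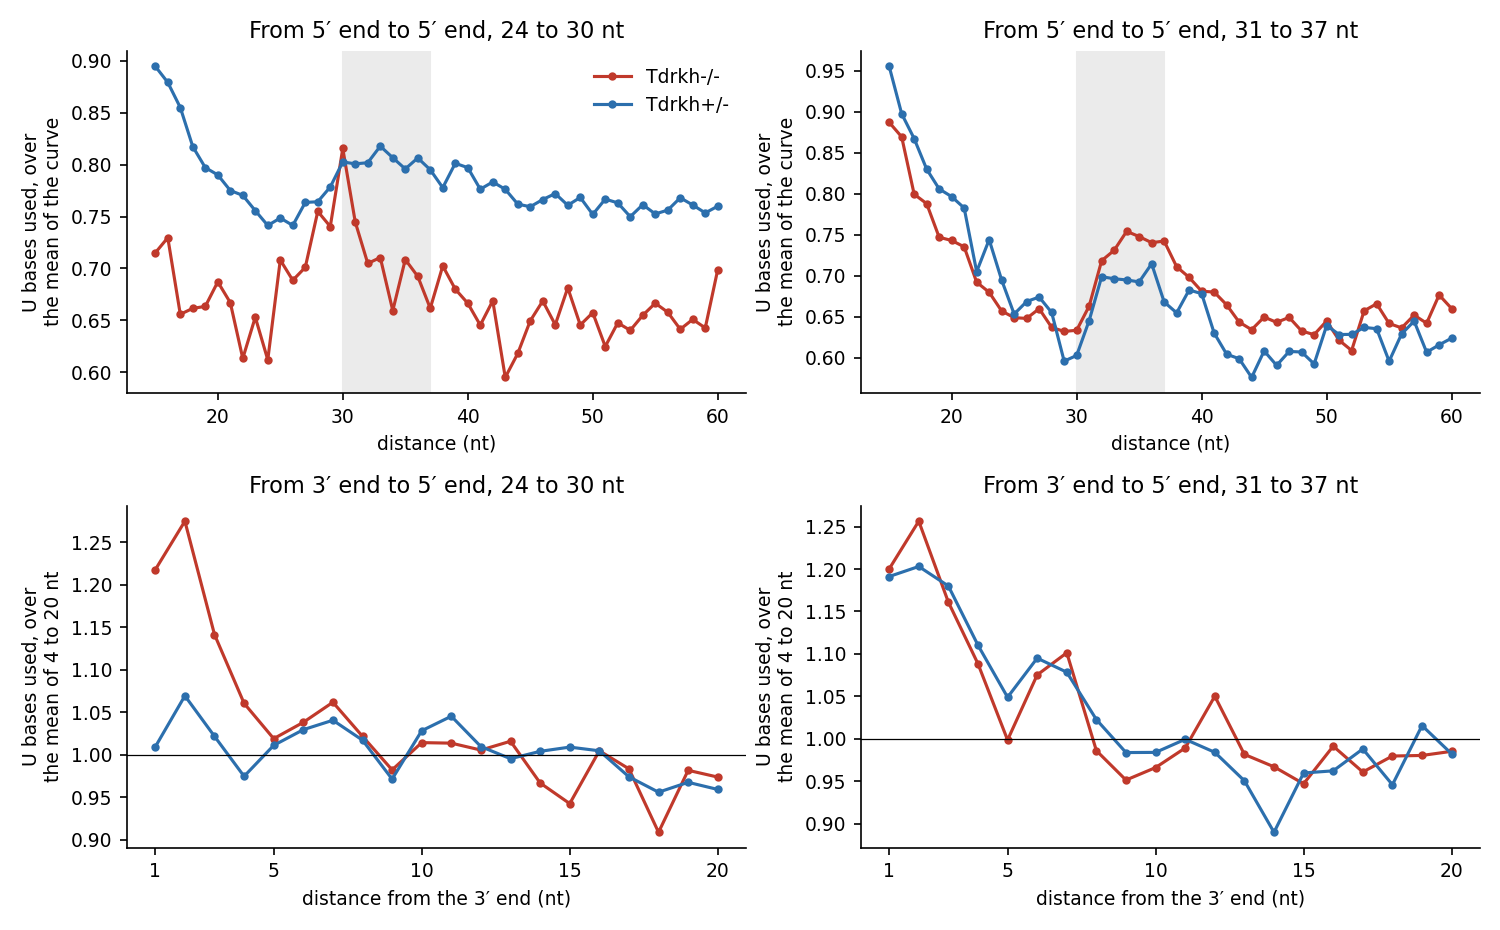
Use of U bases by distance from a 5′ end to 5′ ends downstream (top; x axis, nt; y axis, relative to the mean of the curve; grey, 30 to 37 nt) and from a 3′ end to 5′ ends downstream (bottom; y axis, relative to the mean of 4 to 20 nt), for 24 to 30 nt (left) and 31 to 37 nt (right) reads. The long reads of both libraries rise near 35 nt, and at 1 to 3 nt from the 3′ end all sets but the 24 to 30 nt reads of Tdrkh+/- stand near 1.2.

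Coding reads were unevenly shared among members and along them. A member held a median of 241 reads of 24 to 30 nt over both libraries and a median density of 142 reads per kb (4.4 to 156880). The 10 most abundant members held 9.34% of all such reads. Coding parts of members were longer than those of other genes, with medians of 1752 and 1026 nt, as a rule on read numbers favours. The reads of a member began at a median of 50 positions, with 17.5% of them at the most used, and in 374 members a single 5′ end gave over 50% of reads.

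Fth1, the heavy chain of the iron store ferritin, had the most coding reads. Its log2 ratio at 24 to 30 nt lay above the members' upper quartile of -0.90, both by reads. Counting each distinct sequence once gave -1.02 for Fth1 and -2.03 for all members together. In that setting 5319 of 5472 members were lower by 2-fold or more, so -1.02 is not to be set against the quartile by reads. Fth1 had 39007 reads of 24 to 30 nt in the knockout and 47120 in the heterozygote (log2 ratio -0.35, -0.37 to -0.33), and 173760 and 14277 of 31 to 37 nt (3.53, 3.51 to 3.56). Stard9, a kinesin of dividing cells, had 5464 and 25652 short reads (-2.30) and 11710 and 6250 long ones (0.83). Ppp1r15b, which directs a phosphatase to the translation factor eIF2 alpha, had 6317 and 17750 short reads (-1.56) and 8959 and 1691 long ones (2.33).

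Tbc1d20, a regulator of Rab GTPases needed for male fertility in mice, had far fewer short reads in the knockout. Its long reads were higher there but few in number. It had 1427 reads of 24 to 30 nt in the knockout and 28254 in the heterozygote (log2 ratio -4.38, -4.46 to -4.30), 88.2% of them at the single 5′ end shown above. With each distinct sequence counted once this log2 ratio was -1.87. At 31 to 37 nt Tbc1d20 had 923 and 210 reads (2.06, 1.84 to 2.29). The splicing factor Srrm2 (3510 and 15934 short reads, -2.26), the transcriptional repressor Spen (1999 and 12825, -2.76) and the chromatin regulator Ankrd11 (1593 and 11947, -2.98) have long coding parts and spread their reads over 866 to 1065 5′ ends. Smcr8, a partner of C9orf72 in autophagy, had 5278 and 11140 short reads (-1.15). Fbxo41, an F-box protein, had 2436 and 8879 (-1.94), and Luzp1, a leucine zipper protein of centrosome and actin, had 3521 and 6195 (-0.89).

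Short coding parts led by density. Uqcrq, a subunit of respiratory complex III, had 1376 and 4624 reads of 24 to 30 nt on 249 nt (log2 ratio -1.82), Cox6a1, a subunit of cytochrome c oxidase, had 383 and 4116 on 339 nt (-3.50), and Mt2, a metallothionein, had 757 and 2467 on 231 nt (-1.78, but -0.71 with the longest whole transcript). Cmtm4, a membrane protein with a MARVEL domain, had 821 and 7202 (-3.21). At 31 to 37 nt Cox6a1 was also lower in the knockout, with 787 and 1697 reads (-1.18), whereas Cmtm4 was higher with 3263 and 311 (3.32). Most of the Uqcrq reads (57.8%) and the Cox6a1 reads (67.3%) began at 1 base near the stop codon.

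A few members had almost no piRNA-size reads left in the knockout. 1700006A11Rik had 55 and 4722 reads of 24 to 30 nt (log2 ratio -6.50, -6.91 to -6.11) and 2 and 733 of 31 to 37 nt, so it fell at both lengths. Kctd7, a BTB domain protein, had 11 and 775 (-6.21, -7.22 to -5.36), with 41 and 16 long reads. Tlcd2 had 11 and 627 (-5.91), Pdha2, the pyruvate dehydrogenase subunit of male germ cells, had 9 and 506 (-5.89), and Ccdc96 had 18 and 742 (-5.44). Long reads of these last 3 were also lower in the knockout, with 17 and 36 for Tlcd2, 15 and 49 for Pdha2, and 52 and 472 for Ccdc96. In all, 87 members (1.59%) were lower by 2-fold or more at both lengths, against 1.07% of whole transcripts.

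Most of the members with the highest ratios drew their reads mainly from single 5′ ends, which 6.83% of all members did. The trait was not theirs alone. Among the lowest ratios Kctd7 had 74.8% of its reads at 1 end, Ccdc96 58.4% and Tlcd2 53.9%. Pdha2 had 47.2% and 1700006A11Rik 13.3%. Zdhhc3, a palmitoyltransferase, had 5143 and 1500 reads of 24 to 30 nt (log2 ratio 1.70, 1.62 to 1.79), with 80% at 1 end, and Gatd1 had 1177 and 324 (1.79, 1.61 to 1.97), with 89.0% at 1 end. Rabggtb, the beta subunit of a geranylgeranyl transferase for Rab proteins, had 933 and 299 (1.57), with 57.3% at 1 end. Ky, a muscle protein, had 738 and 226 (1.63) and spread them over 90 ends. The predicted gene Gm10203 had 3734 reads in the knockout and 0 in the heterozygote, 99.97% of them at 1 end whose reads run across the junction of exons 1 and 2. With each distinct sequence counted once the log2 ratios of Zdhhc3, Gatd1, Ky and Rabggtb turned to -2.10, -1.74, -0.21 and -1.23. In that setting 5319 of 5472 members were lower by 2-fold or more, and all members together had a log2 ratio of -2.03. Negative values were therefore not particular to these genes, and Ky at -0.21 was not among the 5319.

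Most listed genes of the germ line were members, and few markers of somatic cells were. Of the piRNA pathway genes 19 of 22 were members, of germ cell markers 7 of 7 and of early meiosis genes 18 of 20, whereas 1 of 8 Sertoli cell, 1 of 6 Leydig cell and 2 of 5 peritubular cell markers were. These lists overlap in a few genes. Among all genes with a coding transcript 25% were members, and expression of the lists was not measured here, so the shares describe the lists alone.

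Genes of the piRNA pathway lay near the other members, and genes of early meiosis had a lower median at both lengths. Over all members 71% were lower at the short and 66.8% higher at the long length by 2-fold or more, with medians of -1.52 and 1.39. In the piRNA pathway 13 of the 19 members were lower by 2-fold or more at 24 to 30 nt and 13 higher by 2-fold or more at 31 to 37 nt, with median log2 ratios of -1.32 and 1.42. Fkbp6, a cochaperone of piRNA loading, had 441 and 962 short reads (-1.20), and Rnf17, a Tudor domain protein, had 202 and 460 (-1.26). In early meiosis genes 16 of 18 were lower by 2-fold or more at the short length and 5 higher by 2-fold or more at the long one, with medians of -1.99 and 0.45. Tex15 had 722 and 1360 short reads (-0.99), Stag3, a cohesin subunit of meiosis, had 254 and 872 (-1.85), and Tex14, a protein of intercellular bridges, had 242 and 781 (-1.76).

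Germ cell and spermatogonial genes also moved from short to long reads in part. Of the 7 germ cell markers 6 were lower by 2-fold or more at 24 to 30 nt and 3 higher by 2-fold or more at 31 to 37 nt (medians -1.66 and 0.76). Dazl, an RNA-binding protein of germ cells, had 125 and 407 short reads (-1.78) and Stra8, which licenses entry to meiosis, had 238 and 287 (-0.34). Of 11 spermatogonial members 5 were lower by 2-fold or more and 7 higher by 2-fold or more at the long length (-0.97 and 1.29). Zbtb16, a factor of undifferentiated spermatogonia, had 235 and 579 short reads (-1.37), Sall4 had 348 and 506 (-0.61) and Foxo1 had 144 and 494 (-1.85).

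None of the 4 somatic markers among the members was 2-fold lower at 24 to 30 nt per microRNA read, where 71% of all members were, but this depended on the counting. Clu, secreted by Sertoli cells, had 125 and 107 reads of 24 to 30 nt (log2 ratio 0.15, -0.23 to 0.54). Myh11 had 614 and 230 (1.34, 1.12 to 1.57), and Acta2 had 134 and 106 (0.26, -0.11 to 0.65). Star, the cholesterol carrier of Leydig cells, had 47 and 72 (-0.69, -1.25 to -0.14). Scaling per read listed moves every log2 ratio by -0.42, which puts Clu and Acta2 below 0 and Star past 2-fold lower. With each distinct sequence counted once Clu was past 2-fold lower, Acta2 was below 0 and the Myh11 log2 ratio was -0.57. In that setting 5319 of 5472 members were lower by 2-fold or more.

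Ribosomal protein and histone genes had the lowest medians among the lists at 24 to 30 nt. Of the 84 genes of cytosolic ribosomal proteins 35 were members, and 31 of these were lower by 2-fold or more at 24 to 30 nt, with a median log2 ratio of -2.71, while 11 were higher by 2-fold or more at 31 to 37 nt and 4 lower by 2-fold or more (median 0.66). Rps3 had 286 and 3488 short reads (-3.68), Rpl8 had 581 and 2816 (-2.35) and Rpl4 had 1062 and 2751 (-1.45). Of 22 histone members, 17 were lower by 2-fold or more at the short length (median -2.06). Hist1h2ba, the H2B variant of the testis, had 278 and 3547 short reads (-3.75) and 245 and 858 long ones (-1.88), and Hist4h4 had 607 and 3107 short reads (-2.43). The linker histone gene Hist1h1a had 1350 and 4653 (-1.86). Ribosomal protein and histone genes have near-identical copies, and only sequences that match 1 gene were counted.

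Zinc finger genes had the highest median at 31 to 37 nt among the lists with more than 1 member. Of 155 members among 394 Zfp genes, 107 were lower by 2-fold or more at 24 to 30 nt, 5 higher by 2-fold or more, and 130 higher by 2-fold or more at 31 to 37 nt, with medians of -1.36 and 2.07. Zfp142 had 1340 and 7450 short reads (-2.55) and 2970 and 1658 long ones (0.77). Zfp646 had 1916 and 5325 short reads (-1.55), and Zfp518b had 1138 and 3349 (-1.63).

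Housekeeping groups were mixed. Of 12 translation factor members 8 were lower by 2-fold or more at 24 to 30 nt (median log2 ratio -1.24), with Eef1b2 at 1080 and 4265 reads (-2.06), Eef2 at 638 and 1473 (-1.28) and the poly(A)-binding protein gene Pabpc1 at 479 and 1042 (-1.19). Of 15 chaperone members 11 were (median -1.41): Hspa2, the heat shock protein of spermatocytes, had 72 and 1782 reads (-4.70) and Hsp90b1, the chaperone of the endoplasmic reticulum, 310 and 1330 (-2.17). Of 8 cytoskeleton members 2 were (median -0.65), with Dync1h1, the dynein heavy chain, at 743 and 1112 (-0.66), Macf1 at 569 and 841 (-0.64) and Tubb5 at 132 and 425 (-1.76). Across the lists the medians at 24 to 30 nt ran from -2.71 to 0.80, beside -1.52 over all members.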

How the data were processed

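Small RNAs of testes at 11 days were sequenced, 1 library per genotype. The deposited values are raw read counts per distinct sequence, listed by the authors without normalization. Bowtie and the build mm9 are named, with no role, in the submitters' processing notes. What was trimmed or filtered before deposit is not given in the sources used here.

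Each listed sequence was searched as an exact, full-length match on either strand of the GENCODE M21 transcripts (build GRCm38, which all coordinates use). The tools were Python 3.11.15, SciPy 1.17.1, NumPy 2.4.6, Numba 0.67.0 and pandas 2.3.3, with Matplotlib 3.10.9 for the figures. A string search of 120 sequences gave the matcher's strands with 0 differences. The coding part was that of the longest coding transcript of each gene, and sequences matching 1 gene on either strand were kept. The genome outside the transcripts was not searched, so other genomic copies of a sequence, repeats included, were not excluded. Frame and codon results use 5404 complete coding parts of the 5472. Levels are reads per microRNA read (18 to 25 nt in microRNA genes), and ratios are Tdrkh-/- over Tdrkh+/-. Intervals at 95% are Wilson's for shares and exact conditional binomial ones for ratios of reads. For frame and spacing ratios, Wilson's interval of the share was divided by its reference share, taken as fixed. In the spacing ratios 1 U base can be counted from several ends, so those intervals are too narrow. A count of 0 was set to 3 counts for a log2 ratio. The samples have 1 library each, so no test was run.

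On simulated data, Poisson counts for the 5472 members the 2-fold mark was passed by 100 of 100 members simulated with a 4-fold change at 24 to 30 nt, by 2 of 100 with a 1.5-fold change and by 1 with none. The true ratio lay inside 95.7% of intervals, and a planted frame ratio of 1.27 was recovered as 1.27. The simulated counts were independent, as the intervals assume. This therefore checks the calculation alone, and does not bear on several reads of 1 molecule or on differences between libraries.

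Named genes are the 10 members with the most reads, the 10 with the most per kb, the 5 highest and 5 lowest ratios among members with at least 500 reads, and up to 3 abundant members of each list. Members, lists and rules were chosen with earlier results of these data known. Alternatives tried were other read weights, minimums, length windows, scalings, folds, transcripts and weights of members, and, added after the data were seen, Fth1 left out, positions near exon junctions left out and a frame expectation from neighbouring bases.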

Additional observations from a re-analysis of the deposited data

How the results depend on the processing

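In the values below, short stands for 24 to 30 nt reads of the heterozygote and long for 31 to 37 nt reads of the knockout. The frame is codon position 3 over its share of U bases, the density the last over the first of 10 segments, and the exchange the log2 ratio of long to short reads between the libraries. Of 210 alternative values of 20 results across members, 127 moved beyond the counting interval, which is narrow at this depth, or, for counts of members, by over 1.5 times. None of the 210 turned its direction, but shares of reads and counts of members could not turn by the rule used, so this says nothing about them. The frame from neighbouring bases with each end counted once, which is not among the 210, was 0.989 in short and 0.988 in long reads. The cause of these moves was not tested, beyond what each setting itself removes.

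Counting each distinct sequence once gave log2 ratios of -2.03 and 0.13 at 24 to 30 and 31 to 37 nt, an exchange of 2.16, 637 members higher by 2-fold or more at 31 to 37 nt and a length difference of 2.52 nt. The short reads then had 57.7% 5′ U, 29.7% A at position 10, a frame of 1.09 and a density of 1.56, and the long reads 57.7%, 30.2%, 1.08 and 1.73, with a following U in 42.1%. Without sequences read once the log2 ratios were -1.44 and 1.96, the exchange 3.40 and the length difference 3.62 nt. The short reads had 77.5% 5′ U, 32.3% A at position 10, a frame of 1.16, a density of 1.34 and a spacing of 5′ ends of 1.04, and the long reads 74.1% 5′ U, 37.2% A and 58.3% following U.

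A minimum of 50 reads gave log2 ratios of -1.53 and 1.71, an exchange of 3.24, a length difference of 3.51 nt, short values of 74.8% 5′ U, 31.9% A, frame 1.16 and density 1.37, and long values of 73% 5′ U, 36.7% A, 57.5% following U, frame 1.28 and density 1.65. A minimum of 500 reads gave -1.60 and 1.93, an exchange of 3.53, 921 members lower and 889 higher (fewer members being tested), a length difference of 3.78 nt, short values of 80.2%, 33.1%, 24.6% following U, 1.15 and 1.22, and long values of 80.6%, 40.4%, 61.5%, 1.31 and 1.43. With a mark of 4-fold, 1737 members were lower and 1508 higher.

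Windows of 26 to 28 and 33 to 36 nt gave log2 ratios of -2.35 and 2.26 and an exchange of 4.61, short values of 76.4% 5′ U, 23.5% following U, frame 1.18 and density 1.39, and long values of 75.2%, 39% A, 59.5% following U, frame 1.40 and density 1.65. Without the 10 most abundant members the values were -1.54 and 1.62, an exchange of 3.16, 3.34 nt, short values of 74.5% 5′ U, 31.1% A, 24.9% following U, frame 1.10 and density 1.39, and long values of 71%, 32.5%, 54%, 1.08 and 1.66. Without Fth1, a choice made after the data were seen, they were -1.58 and 1.62, an exchange of 3.20, 3.37 nt, short values of 75.3% 5′ U, 24.2% following U, frame 1.13 and density 1.37, and long values of 71.5% 5′ U, 32.5% A, 53.9% following U and frame 1.09.

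With the longest whole transcript the log2 ratio at 24 to 30 nt was -1.53, the short A share 31.9% and density 1.30, and the long values 37.2% A, 58.1% following U, frame 1.28 and density 1.56. Scaling per read listed gave -1.96 and 1.31. With each member weighted alike the length difference was 2.97 nt, the short values 66.9% 5′ U, frame 1.14 and density 1.58, and the long values 60.9%, 1.10 and 1.92. With the antisense strand left out when judging whether a sequence matches 1 gene, the short frame was 1.15 and the long values were 73.8% 5′ U, 57.9% following U, frame 1.27 and density 1.63. Without positions near exon junctions, added after the data were seen, frame and density were 1.16 and 1.27 in short and 1.28 and 1.5 in long reads. The frame expectation from 1 base before to 2 after the U gave 1.0 and 1.09, and from 2 before to 3 after it 1.03 and 1.15.

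With ends of at least 3 reads the short spacing of 5′ ends was 1.05 and the long use of U bases 1 to 3 nt after 3′ ends 1.24, which was 1.25 with ends weighted by reads up to 10. Among 57 named genes 274 of 285 alternative log2 ratios kept their sign, and 9 genes changed it under some setting. With distinct sequences counted once, Zdhhc3 turned to -2.10, Gatd1 to -1.74, Rabggtb to -1.23, Myh11 to -0.57 and Ky to -0.21, and among genes under 2-fold Piwil2 turned to -0.46, Acta2 to -0.91 and Clu to -1.05. Under that count of distinct sequences 5319 of 5472 members were lower by 2-fold or more at 24 to 30 nt. Hsp90ab1 turned to 0.06 without sequences read once. No paired analysis was possible because each genotype has 1 library and no test was run. Values with few reads, such as those of Pdha2 and Star, are limited by depth, and no interval covers differences between animals or libraries.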
